A study of Mus musculus with 8 samples.

Results

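The mouse gene Rpl13a, which encodes a protein of the large ribosomal subunit, carries 4 C/D box small nucleolar RNAs (snoRNAs) in its introns, Snord32a, Snord33, Snord34 and Snord35a. They were taken by their Ensembl transcript identifiers from the features of type snoRNA, and made up 4 of the 3514 listed features and 4 of the 526 snoRNA features. All 4 were listed in both deposited tables and passed every filter on low counts.

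The libraries came from bone marrow-derived macrophages (BMDMs) of C57BL/6J mice, which the methods give as 10-week-old males whose marrow cells were differentiated in medium with L929-cell conditioned medium, a source of M-CSF. Control cells and cells deprived of M-CSF for 36 h, an apoptotic stimulus, were compared, and the labels name no transgene or deleted allele in either group. The Ion Proton run held 2 libraries per group. The SOLiD run held 1 per group made from total RNA, and 1 per group made from RNA that had been cut from a gel at 25 to 40 nt. The labels name the Ion Proton extract as small RNA and the methods as total RNA, and the methods call the samples biological replicates without saying whether they were separate mice or cultures.

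C/D box snoRNAs are cut out of introns of their host gene, bind a set of core proteins that includes fibrillarin, and guide the 2'-O-methylation of ribosomal RNA at sites they pair with. The C box near the 5' end and the D box near the 3' end are the sequences by which these proteins recognise them. The Rpl13a snoRNAs are also known as mediators of cell death under lipotoxic and oxidative stress, where they have been found to accumulate outside the nucleolus.

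The 4 sequences are shown because the boxes, the length and the stretches shared with other features set which reads can be counted on each. They are given 5' to 3' as the Ion Proton table holds them, with the C box (TGATG) and the D box (CTGA) in capitals.
Snord32a: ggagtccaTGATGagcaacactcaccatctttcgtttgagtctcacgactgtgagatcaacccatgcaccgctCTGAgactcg
Snord33: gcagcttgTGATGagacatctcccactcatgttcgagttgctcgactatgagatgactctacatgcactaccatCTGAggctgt
Snord34: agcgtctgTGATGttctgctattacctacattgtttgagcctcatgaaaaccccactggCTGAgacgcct
Snord35a: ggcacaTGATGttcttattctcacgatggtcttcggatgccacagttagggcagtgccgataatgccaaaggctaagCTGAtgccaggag
All lie on the minus strand of GRCm38 (mm10) chromosome 7, each wholly inside 1 intron of the 8-exon transcript Rpl13a-201. Snord32a was in intron 2 (chr7:45127382-45127464, 83 nt) and Snord33 in intron 4 (chr7:45126864-45126947, 84 nt). Snord34 was in intron 5 (chr7:45126601-45126670, 70 nt) and Snord35a in intron 6 (chr7:45126346-45126435, 90 nt). Introns 1, 3 and 7 held none of the 4, and the host messenger RNA was not analysed here. Snord34 was the shortest, with 46 nt between the boxes, against 60 in Snord32a, 61 in Snord33 and 66 in Snord35a.

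**Figure D1:**
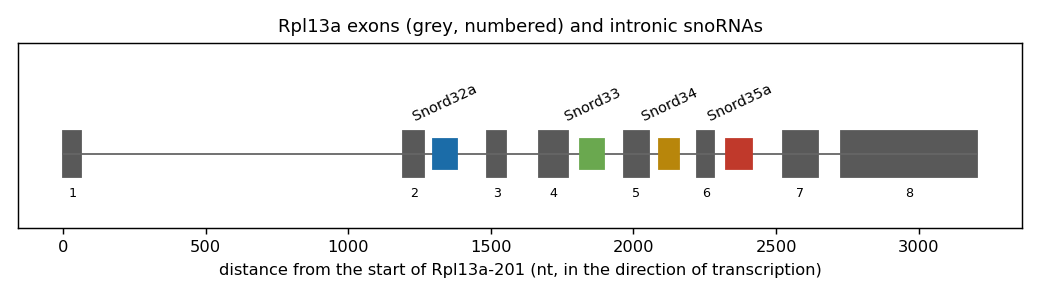
Exons (grey, numbered) of the transcript Rpl13a-201 and the 4 intronic snoRNAs (coloured), drawn to scale along the distance in nt from the transcript start in the direction of transcription. Introns 2, 4, 5 and 6 each hold 1 snoRNA.

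The boxes were searched as exact letters on the given strand, TGATG starting in the first 16 nt and CTGA starting in the last 20 nt, and did not overlap in the members. Both were present in 64 of 77 features with a Snord symbol (83.1%), in 146 of 464 snoRNA features with a sequence (31.5%) and in 0 of 38 with a Snora symbol, the H/ACA box class. They were present together in 0 of 266 listed features of other types with 60 to 100 nt. Between members, Snord32a and Snord33 were the most alike, with 66.3% identity in a global alignment, and the other pairs had 53.1 to 59.5%.

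Reads on the listed features numbered from 6053130 to 7760142 in the Ion Proton libraries. The control library had 5772453 and the M-CSF withdrawal library 12178454 in SOLiD total RNA, against 8910972 and 4039837 in size-selected RNA. Of these, 3990 to 5163 fell on the 4 snoRNAs in each Ion Proton library, 3402 and 10590 in SOLiD total RNA, and 614 and 940 in size-selected RNA. The composition of the libraries moved with the treatment: miRNAs took 40.4% and 41.6% of reads in Ion Proton control cells and 30.0% and 30.3% after M-CSF withdrawal, 82.2% and then 41.3% in SOLiD total RNA, and 87.4% and then 45.1% in size-selected RNA. All snoRNA features together took 13.9% and 12.2% of reads in Ion Proton control cells and 11.2% and 11.7% after M-CSF withdrawal, lower with no overlap, but went from 4.04% to 6.60% in SOLiD total RNA and from 1.17% to 3.38% in size-selected RNA. The RNA integrity number in the labels was 8.4 to 8.9 in the Ion Proton samples, 8.4 (control) and 7.5 (M-CSF withdrawal) for SOLiD total RNA, and 2.7 and 2.6 for the gel-selected RNA. The part of composition and RNA quality in the results was not tested, and in such bulk samples fewer cells and less RNA per cell cannot be told apart.

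The miRNAs of macrophages and blood cells fixed as markers were read in every Ion Proton library. Of these, miR-146a-5p was at 8577 and 9638 CPM in control cells and 7436 and 7773 CPM after M-CSF withdrawal, miR-142a-5p at 756 and 784 against 566 and 544 CPM, and miR-223-3p at 96.5 and 83.7 against 66.9 and 67.6 CPM, each lower with no overlap, while miR-155-5p was at 198 and 177 against 222 and 198 CPM. The measured markers of fibroblasts, epithelium, liver and red cells did not exceed 18.7 CPM. In SOLiD, miR-223-3p stood at 11725 and 4473 RPM in total RNA and at 9577 and 10355 RPM in size-selected RNA, control first. In the same order, miR-146a-5p was at 13197 and 6550 RPM and at 42421 and 23276 RPM. The values of miR-155-5p were 361 and 575 RPM and then 999 and 758 RPM. These macrophage markers did not all move the same way in either extract. Markers of other tissues were read as well. miR-205-5p (epithelium) was at 3547 to 5586 RPM, miR-451a (red cells) at 2394 to 3988 RPM and miR-122-5p (liver) at 52.7 to 89.6 RPM. The other red cell marker, miR-144-3p, was at only 1.46 to 2.97 RPM. Of the muscle markers, miR-133a-3p was at 207 to 394 RPM and miR-206-3p at 15.7 to 26.2 RPM. These were in control and M-CSF withdrawal libraries alike, and the part of these and of the macrophage markers in the results was not tested.

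In the Ion Proton run Snord35a rose after M-CSF withdrawal, and the other 3 members did not pass the test. Each value of this run is in CPM, the count scaled to 1000000 reads on listed features. Snord35a was at 49.7 and 44.4 CPM in control cells and at 74.8 and 71.4 CPM after M-CSF withdrawal, from 386, 319, 488 and 432 reads. The groups did not overlap, and both M-CSF withdrawal libraries stood above both controls. The means were 47.1 ± 3.76 CPM and 73.1 ± 2.45 CPM (SD, n = 2 each). The change was 0.69 on the log2 scale (SE 0.104, adjusted p = 0.0148, edgeR quasi-likelihood test with Benjamini-Hochberg adjustment over 2029 features). The call was lost without either M-CSF withdrawal replicate, with a log2 change of 0.68 (adjusted p = 0.0807, edgeR) without replicate 1 and 0.71 (adjusted p = 0.0689, edgeR) without replicate 2.

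Across all features tested, 24.6% were called in either direction, 15.7% higher and 8.97% lower (318 and 182 features). This split was 236 and 241 with DESeq2 and 413 and 80 with TMM factors from miRNA features alone, and 299 and 312 features in all were called by edgeR without M-CSF withdrawal replicates 1 and 2. The 1 call among the 4 members is near that background, so that the count itself tells nothing about the members. Ordered by signed log2 change, from the most raised to the most lowered, Snord35a ranked 84 of 373 snoRNA features, Snord32a 125, Snord33 173 and Snord34 193.

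Snord32a was at 341 and 283 CPM in control cells and at 356 and 414 CPM after M-CSF withdrawal. Both M-CSF withdrawal libraries stood above both controls, with 341 and 356 CPM as the nearest values. Its means of 312 ± 41.0 and 385 ± 40.8 CPM (SD, n = 2 each) gave a log2 change of 0.36 (SE 0.140, adjusted p = 0.155, edgeR). Snord33 was at 147 and 131 CPM in control cells and at 154 and 131 CPM after M-CSF withdrawal. These values overlapped, with means of 139 ± 10.8 and 142 ± 16 CPM (SD, n = 2 each) and a log2 change of 0.09 (SE 0.113, adjusted p = 0.644, edgeR). Snord34 was at 128 and 97.2 CPM in control cells and at 109 and 108 CPM after M-CSF withdrawal. The M-CSF withdrawal values lay between the controls, with means of 113 ± 21.9 and 108 ± 1.15 CPM (SD, n = 2 each). Its log2 change was -0.0043 (SE 0.154, adjusted p = 0.991, edgeR).

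**Figure D2:**
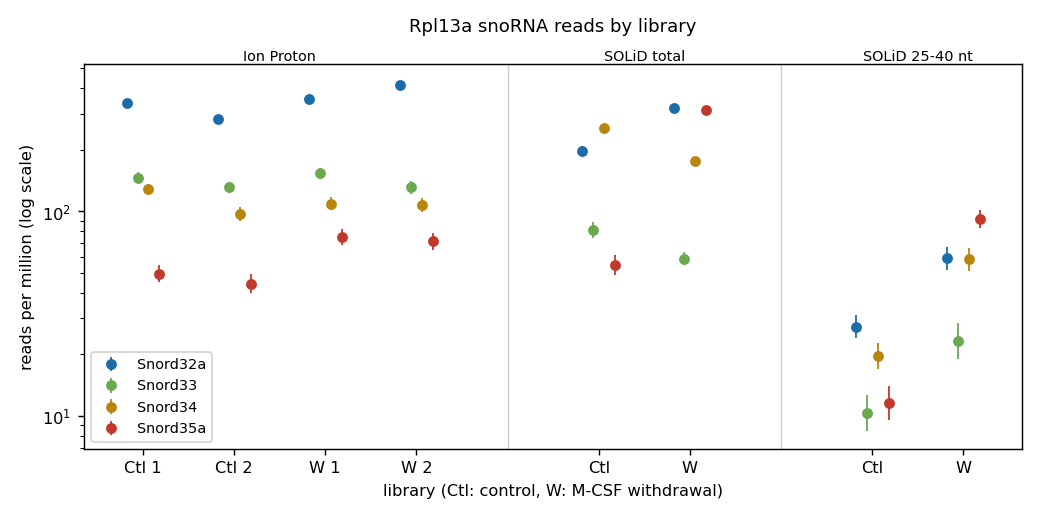
CPM or RPM (log axis) of the 4 snoRNAs in the 8 libraries, with 95% Wilson intervals of the counts, in Ion Proton, SOLiD total RNA and SOLiD RNA of 25 to 40 nt. Snord35a is at 44.4 to 49.7 CPM in Ion Proton control cells and 71.4 to 74.8 CPM after M-CSF withdrawal, at 54.7 and 314 RPM in SOLiD total RNA, and at 11.6 and 92.1 RPM in size-selected RNA.

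To compare levels between genes, CPM was divided by length and given per 100 nt. Whether reads in these libraries scale with feature length was not tested, and mean CPM without the division gave the same order. In Ion Proton control cells Snord32a stood highest at 376 ± 49.4, followed by Snord33 at 165 ± 12.9, Snord34 at 161 ± 31.3 and Snord35a at 52.3 ± 4.18 CPM per 100 nt (SD, n = 2). After M-CSF withdrawal the order was the same, at 464 ± 49.1, 169 ± 19.1, 155 ± 1.65 and 81.2 ± 2.72 CPM per 100 nt (SD, n = 2). Snord33 and Snord34 were neighbours in this order and differed by less than the SD of either in control cells. After M-CSF withdrawal they differed by less than the SD of Snord33 but by more than that of Snord34.

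The SOLiD values are in RPM, scaled to 1000000 reads on listed features in the same way, with 1 library per condition, so that no difference between conditions was tested and the 95% intervals cover counting error only. Snord35a had the largest difference of the members in total RNA, at 54.7 RPM in control cells (316 reads, Wilson interval 49.0 to 61.1) and 314 RPM after M-CSF withdrawal (3820 reads, 304 to 324). This was a 5.73-fold difference, or 2.5 as a log2 ratio of RPM plus 1 (exact interval of the read ratio, 2.35 to 2.69), the 6th largest among the 175 snoRNA features that reached 10 RPM in each of the pair. Snord32a was at 197 RPM in control cells (1137 reads, 186 to 209) and 321 RPM after M-CSF withdrawal (3912 reads, 311 to 331), a log2 ratio of 0.70 (0.61 to 0.80), which became -0.0067 when scaled to the reads on other snoRNAs.

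The members of introns 4 and 5 were lower in the M-CSF withdrawal library of total RNA in RPM, and higher when scaled to miRNA reads (log2 ratios of 0.53 for Snord33 and 0.45 for Snord34). Snord33 was at 81.1 RPM in control cells (468 reads, 74.1 to 88.8) and 58.8 RPM after M-CSF withdrawal (716 reads, 54.6 to 63.3), a log2 ratio of -0.46 (-0.63 to -0.29). Snord34 was at 257 RPM (1481 reads, 244 to 270) and 176 RPM (2142 reads, 169 to 183), a log2 ratio of -0.54 (-0.64 to -0.45). Ordered from the highest signed log2 ratio to the lowest, they ranked 153 and 159 of the 175 snoRNA features, whose median log2 ratio was 0.58. Of the members Snord35a alone was past a 2-fold difference, where 41.2% of the 978 features that reached 10 RPM in each of the pair were at least 2-fold higher and 11.6% at least 2-fold lower. Per 100 nt, the order went from Snord34 (367 RPM), Snord32a (237), Snord33 (96.5) and Snord35a (60.8) in control cells to Snord32a (387 RPM), Snord35a (349), Snord34 (251) and Snord33 (70.0) after M-CSF withdrawal.

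In RNA of 25 to 40 nt, which is shorter than any of the 4 snoRNAs, all 4 were at least 2-fold higher in the M-CSF withdrawal library on the scale of RPM plus 1, as were 47.7% of the 903 features at 10 RPM or more and 83 of the 128 snoRNA features. Snord35a went from 11.6 RPM (103 reads, 9.53 to 14.0) to 92.1 RPM (372 reads, 83.2 to 102), a log2 ratio of 2.89 (2.68 to 3.32). Snord34 went from 19.6 RPM (175 reads, 16.9 to 22.8) to 58.4 RPM (236 reads, 51.4 to 66.4), a log2 ratio of 1.53 (1.28 to 1.86). Snord32a went from 27.4 RPM (244 reads, 24.2 to 31.0) to 58.9 RPM (238 reads, 51.9 to 66.9), a log2 ratio of 1.08 (0.84 to 1.37). Snord33 went from 10.3 RPM (92 reads, 8.42 to 12.7) to 23.3 RPM (94 reads, 19.0 to 28.5), a log2 ratio of 1.10 (0.74 to 1.60). With 5 RPM added in place of 1, Snord32a (0.98) and Snord33 (0.88) were under a 2-fold difference and Snord34 (1.36) and Snord35a (2.55) above it. The median over snoRNA features was 1.46, so that Snord32a and Snord33 were below it, Snord34 was close to it and Snord35a was above it. Scaled to the reads on other snoRNAs, the log2 ratio was -0.45 for Snord32a, -0.42 for Snord33, 0.0025 for Snord34 and 1.37 for Snord35a. In this size class 11.2% of features were at least 2-fold lower and none of the 4 was.

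Size-selected and total RNA of the same condition were set side by side within the SOLiD run. In control cells the size-selected RPM was 0.139 of the total RNA RPM for Snord32a, 0.127 for Snord33, 0.0765 for Snord34 and 0.211 for Snord35a, all under the median ratio of 0.278 over 172 other snoRNA features. After M-CSF withdrawal the ratios were 0.183, 0.396, 0.332 and 0.294 in the same order, against a median of 0.472 over 207 other snoRNA features. All 4 ratios were higher after M-CSF withdrawal. The median was higher too, but the 2 medians are over different features, those at 10 RPM or more in total RNA of each condition.

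**Figure D3:**
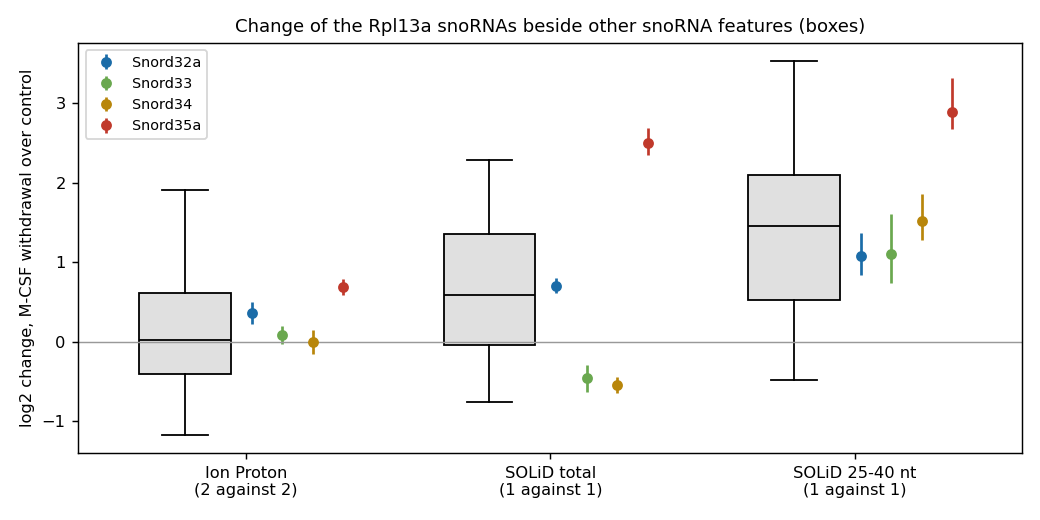
Log2 change of M-CSF withdrawal over control for the 4 snoRNAs (points) beside the other snoRNA features (boxes, with median and quartiles and whiskers at percentiles 5 and 95). Bars are SE for the edgeR fit of the Ion Proton run and 95% counting intervals for the SOLiD ratios, and Snord35a is the highest of the 4 in each set, at 0.69, 2.5 and 2.89.

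Both runs were then fitted together with limma, on log2 of the CPM or RPM plus 1 in the Ion Proton and SOLiD total RNA libraries (3 per group), with the run as a term. Of the members 0 passed the threshold with limma and 1, Snord35a, with limma-voom on recovered reads (1, the same, at an unadjusted p under 0.05 with either), where 17.3% of the 1701 features passed with limma, 11.6% higher and 5.7% lower, and 23.3% with limma-voom. The split of 198 higher and 97 lower with limma was 219 and 178 with limma-voom, 178 and 230 when centred on the median, and 266 and 0 when scaled to miRNA reads. These 295 features became 81 and 19 without control replicates 1 and 2 of the Ion Proton run, and 15 and 16 without its M-CSF withdrawal replicates 1 and 2. Snord35a had a log2 change of 1.25 (SE 0.403, adjusted p = 0.0845, limma) and Snord32a of 0.44 (SE 0.183, adjusted p = 0.151, limma). Snord33 had a log2 change of -0.13 (SE 0.204, adjusted p = 0.664, limma) and Snord34 of -0.21 (SE 0.211, adjusted p = 0.507, limma).

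Whether the change differed between the runs was tested by a run by treatment term in limma, a test chosen after the values had been seen, in which the single SOLiD libraries are assumed to vary like the Ion Proton ones, with 2 residual degrees of freedom. It called 26.0% of the 1701 features. Snord35a was among them, with a SOLiD change larger than the Ion Proton change by 1.87 on the log2 scale (SE 0.193, adjusted p = 0.00372, limma). The differences of the other 3 members were not called, at 0.40 (SE 0.229, adjusted p = 0.267, limma) for Snord32a, -0.49 (SE 0.217, adjusted p = 0.167, limma) for Snord33 and -0.50 (SE 0.265, adjusted p = 0.233, limma) for Snord34.

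Ratios between members of 1 library do not depend on its total. There were 6 pairs, each compared in the Ion Proton run by an exact permutation test (two-sided), where 2 against 2 libraries cannot give a p under 0.333. The Snord33 to Snord35a read ratio was 2.95 and 2.95 in Ion Proton control cells and 2.05 and 1.84 after M-CSF withdrawal. It was 1.48 and 0.187 in SOLiD total RNA and 0.893 and 0.253 in size-selected RNA, control first, so that it was lower after M-CSF withdrawal in all 3 sets. The Snord34 to Snord35a ratio was 2.58 and 2.19 against 1.46 and 1.51 in the Ion Proton run, 4.69 against 0.561 in SOLiD total RNA and 1.70 against 0.634 in size-selected RNA. The Snord32a to Snord35a ratio was 6.85 and 6.37 against 4.76 and 5.80 in the Ion Proton run, 3.60 against 1.02 in SOLiD total RNA and 2.37 against 0.640 in size-selected RNA.

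These 3 ratios to Snord35a had Ion Proton groups that did not overlap, with log2 changes of -0.60, -0.68 and -0.33 in the order given (exact permutation p = 0.333 each, 0.5 adjusted over the 6 pairs). The Snord33 to Snord34 ratio overlapped in the Ion Proton run, at 1.14 and 1.35 against 1.41 and 1.22, and was 0.316 against 0.334 in SOLiD total RNA and 0.526 against 0.398 in size-selected RNA. The Snord32a to Snord34 ratio had groups that did not overlap in the Ion Proton run, at 2.66 and 2.91 against 3.26 and 3.85, and was 0.768 against 1.83 in SOLiD total RNA, but 1.39 against 1.01 in size-selected RNA, which is the other direction.

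As a share of the reads on all 4, Snord35a took 7.48% and 7.99% in Ion Proton control cells and 10.8% and 9.86% after M-CSF withdrawal. Its share was 9.29% and 36.1% in SOLiD total RNA and 16.8% and 39.6% in size-selected RNA, control first. The Snord34 share was lower after M-CSF withdrawal in each set, at 19.3% and 17.5% against 15.7% and 14.9%, 43.5% against 20.2%, and 28.5% against 25.1%. Snord33 took 22% and 23.6% in Ion Proton control cells and 22.1% and 18.1% after M-CSF withdrawal, which overlapped, and went from 13.8% to 6.76% and from 15% to 10.0% in the SOLiD sets. Snord32a took between 50.9% and 57.2% in the Ion Proton libraries, 33.4% and 36.9% in SOLiD total RNA and 39.7% and 25.3% in size-selected RNA. In the Ion Proton run the exact permutation p was 0.333 for Snord32a, Snord34 and Snord35a, the smallest it can be, and 0.667 for Snord33 (0.444 and 0.667 adjusted over the 4 shares).

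**Figure D4:**
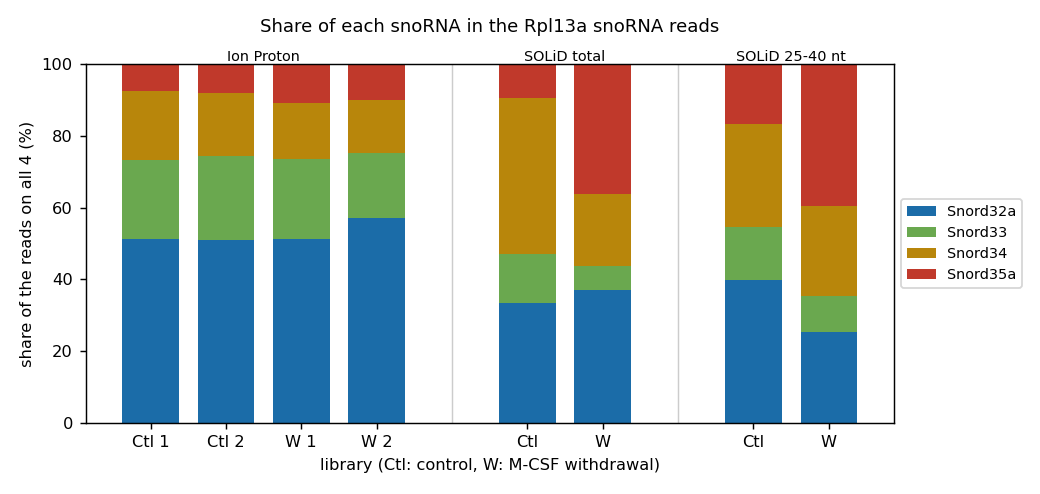
Share (%) of each of the 4 snoRNAs in the reads on all 4, stacked from 0 to 100%, for the 8 libraries. The Snord35a share is larger after M-CSF withdrawal in each set, at 36.1% in SOLiD total RNA and 39.6% in size-selected RNA.

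Summed as 1 group, the members differed less between conditions than Snord35a alone. They had 665 and 556 CPM in Ion Proton control cells and 694 and 724 CPM after M-CSF withdrawal, 589 and 870 RPM in SOLiD total RNA, and 68.9 and 233 RPM in size-selected RNA. Per 1000 snoRNA reads they had 4.80 and 4.54 in Ion Proton control cells and 6.19 and 6.19 after M-CSF withdrawal, went from 14.6 to 13.2 in SOLiD total RNA, and from 5.87 to 6.89 in size-selected RNA. Per 1000 reads on snoRNAs of other ribosomal protein genes, they had 11.7 and 11.1 against 15.3 and 15 in the Ion Proton run, 64.5 against 65.0 in SOLiD total RNA, and 35.1 against 30.3 in size-selected RNA. The Ion Proton groups did not overlap on either of these scales, and the SOLiD sets did not share 1 direction.

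Other snoRNA groups are given by their counts in the Ion Proton fit. Of the 53 tested snoRNAs in other ribosomal protein genes, 9 rose and 3 fell with edgeR and 6 rose and 11 fell with DESeq2, with edgeR median log2 changes of -0.06, against 0.22 for the 4 members and 0.08 for all features. With DESeq2 the median of all features was lower by 0.12 on the log2 scale, and with TMM factors from miRNA features it was higher by 0.31. Of the 3 in Gas5, a long non-coding host gene, 0 rose and 0 fell with edgeR, with limma-voom or with DESeq2 (0 at an unadjusted p under 0.05 with edgeR and with limma-voom and 1, lower, with DESeq2), with an edgeR median of -0.26. Of 51 other C/D box snoRNAs 8 rose and 3 fell with edgeR (7 and 12 with DESeq2), with a median of 0.09 that turned to -0.03 with DESeq2. Of 25 H/ACA box snoRNAs, which guide pseudouridylation, 0 rose and 2 fell with edgeR and with limma-voom, and 0 rose and 3 fell with DESeq2, with 2, 3 and 0 higher at an unadjusted p under 0.05. Their edgeR median was 0.10, and -0.02 with DESeq2.

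A miRNA is annotated inside Snord33, and of the 2279 listed features with a sequence it was the only one outside the members that shared an exact stretch of 20 nt with a member. At 15 nt, Snord35a also shared a stretch with 1 other listed feature, so that a short read within it could come from either. The sequence of miR-5121 (21 nt, chr7:45126925-45126945, minus strand) equals positions 3 to 23 of Snord33, counted from its 5' end, and so covers the C box. It is shown with its seed, bases 2 to 8, in capitals.
miR-5121: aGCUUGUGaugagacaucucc
It was at 2.71 and 0.418 CPM in Ion Proton control cells and at 2.61 and 4.79 CPM after M-CSF withdrawal, from 21, 3, 17 and 29 reads, with overlapping groups and a log2 change of 1.27 (SE 0.868, adjusted p = 0.376, edgeR). In SOLiD total RNA it was at 10.2 RPM in control cells (59 reads) and 22.4 RPM after M-CSF withdrawal (273 reads), a log2 ratio of 1.06 (0.72 to 1.56), while Snord33 as a whole had a log2 ratio of -0.46. In size-selected RNA it went from 1.12 RPM (10 reads) to 14.1 RPM (57 reads), a 12.6-fold difference. The log2 ratio of RPM plus 1 was 2.83 (exact interval of the read ratio without the added 1, 2.67 to 4.79). The control value was under the 10 RPM asked for in counts of features, so the added 1 weighed on this ratio. Set against the reads on Snord33, those on miR-5121 were between 0.318% and 3.66% across the Ion Proton run, 12.6% and 38.1% in SOLiD total RNA, and 10.9% and 60.6% in size-selected RNA. Whether a read on this stretch was counted on both features is not given in the sources used here.

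**Figure D5:**
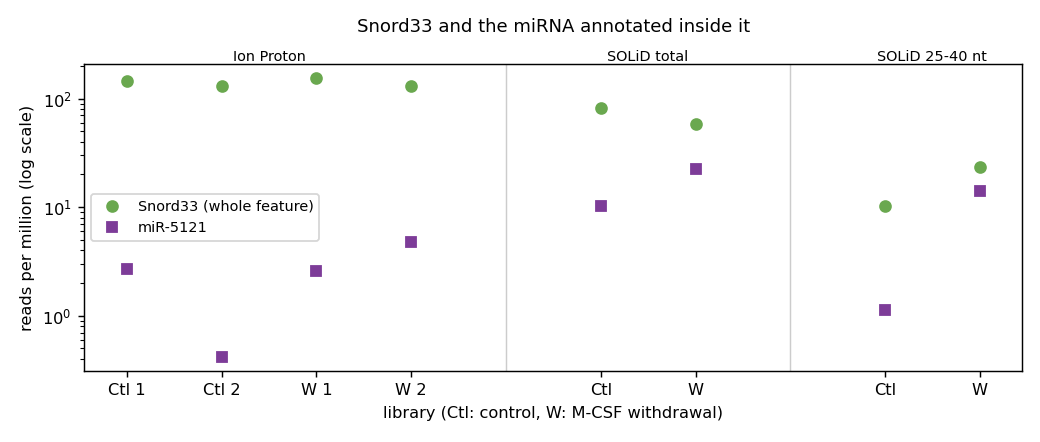
CPM or RPM (log axis) of Snord33 and of miR-5121, the 21 nt miRNA annotated inside it, in the 8 libraries. In SOLiD total RNA Snord33 is lower after M-CSF withdrawal (81.1 and 58.8 RPM) and miR-5121 is higher (10.2 and 22.4 RPM); scaled to miRNA reads, Snord33 is higher too.

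Likeness between profiles was measured as the root mean square difference of log2 values over the 8 libraries, centred within each of the 3 sets, as a description with no test. Among members, Snord33 and Snord34 were nearest, at 0.137, and Snord32a was 0.326 from Snord33 and 0.359 from Snord34. Snord35a was the farthest from each, at 0.652 from Snord32a, 0.868 from Snord34 and 0.889 from Snord33. Of 134 other snoRNA features whose mean reached 10 CPM or RPM in each set, the nearest to the mean profile of the members were Gm24826 (0.0879), Gm23991 (0.0962) and Gm25506 (0.131), against a median of 0.393. Taken singly, the nearest of these 134 was at 0.150 from Snord32a, 0.149 from Snord33, 0.174 from Snord34 and 0.205 from Snord35a. For Snord32a and Snord35a this was nearer than any other member. Gm23991, which lies inside 2410002F23Rik, was at 64.6 and 55.8 CPM in Ion Proton control cells and 87.2 and 77.0 CPM after M-CSF withdrawal, with a log2 change of 0.50 (SE 0.120, adjusted p = 0.0476, edgeR). Gm24826 had a log2 change of 0.10 (SE 0.126, adjusted p = 0.633, edgeR) and Gm25506, inside Tnpo2, of -0.02 (SE 0.119, adjusted p = 0.930, edgeR). Snord32b and Snord48 were not analysed here.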

How the data were processed

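Small RNA libraries of control and M-CSF withdrawal BMDMs were analysed as deposited. In the Ion Proton run, adapters were trimmed by the authors with cutadapt 1.2.1 and reads were mapped to mm10 with Bowtie2 2.2.4, allowing several places per read. The authors deposited raw counts per miRNA, tRNA or Ensembl non-coding RNA. For the SOLiD run the authors mapped reads with LifeScope and deposited RPM over listed features. Both were counted with a Picard-based program, per the methods, and how overlapping features were handled is not given in the sources used here. SOLiD values were multiples of what 1 read is worth (0.0821 to 0.248 RPM), all within 0.01 of a whole read, so reads were recovered. Of 2022 Ensembl identifiers, 1906 matched GENCODE M21, and sequences and coordinates are those of the deposited tables.

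The test of the Ion Proton counts was that of edgeR 4.0.16 (TMM, quasi-likelihood, minimum summed count 5) in R 4.3.3, and the Ion Proton and SOLiD total RNA libraries were fitted with limma 3.58.1 on log2 of CPM or RPM plus 1 with run as a term and the same minimum in each run. Benjamini-Hochberg adjustment was made over the whole table, and an adjusted p under 0.05 was called. SOLiD ratios use RPM plus 1 and, for counts of features, at least 10 RPM in both libraries; intervals are exact 95% binomial intervals of the recovered reads, without the added 1, and Wilson intervals for single values. Reads carried no molecular identifiers, so that intervals cover counting error only. Ion Proton replicates differed by more than sampling noise (chi-square per degree of freedom 26.3 and 25.5) and were kept as separate samples. The rule for named features took the members, features sharing 20 nt or more with a member, relatives of the members by name, Snord48 and the 3 nearest profiles. Not all features of this rule are reported or were analysed here. DESeq2 1.42.0, limma-voom, other scalings, filters, pseudocounts, a replicate block and leaving out each Ion Proton library were alternatives. The members and lists were chosen with earlier results of these data known.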

Additional observations from a re-analysis of the deposited data

Results flagged for a closer look

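On the scale of RPM plus 1, Snord33 and Snord34 differed between conditions in opposite directions in the SOLiD extracts. The log2 ratio of Snord33 was -0.457 in total RNA and 1.10 in size-selected RNA, and that of Snord34 was -0.542 in total RNA and 1.53 in size-selected RNA. With 1 library per condition and extract, these differences were not tested. The miRNA share of reads was lower after M-CSF withdrawal in both extracts, and its part was not tested. Scaled to miRNA reads, both snoRNAs had ratios above 0 in total RNA too (0.53 and 0.45). Scaled to the reads on other snoRNAs, Snord33 was lower in both extracts, at -1.17 in total RNA and -0.42 in size-selected RNA. Snord34 was then at -1.25 and 0.0025, so that the opposite directions depended on the scaling.

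The change of Snord35a differed between the runs, by 1.87 on the log2 scale (SE 0.193, adjusted p = 0.00372, limma), larger in SOLiD total RNA. The test was chosen after the values had been seen, and 26.0% of all features tested also differed.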

How the results depend on the processing

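The 2 replicates per group in the Ion Proton run and 1 library per condition in each SOLiD extract limited every comparison, and all levels are relative to reads on listed features, of which miRNAs took a lower share after M-CSF withdrawal. Snord35a stayed higher under all alternatives run, in all 3 sets. In the Ion Proton fit Snord32a passed the threshold with TMM factors from miRNA features (log2 change 0.67, adjusted p = 0.0372, edgeR). Snord33 changed direction with DESeq2 (-0.031), and Snord34 with TMM factors from miRNA features (0.31), with limma-voom (0.0075) and with the replicate block (0.0073). Leaving out 1 library at a time gave log2 changes of 0.23 to 0.48 for Snord32a, -0.0078 to 0.18 for Snord33, -0.18 to 0.10 for Snord34 and 0.62 to 0.71 for Snord35a, and 299 to 528 called features against 500. Snord33 changed direction without M-CSF withdrawal replicate 1 (-0.0078), and Snord34 without control replicate 1 (0.10) and without M-CSF withdrawal replicate 1 (0.0082). The causes were not tested.

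With both runs, Snord35a passed the threshold with limma-voom on recovered reads (log2 change 1.01, adjusted p = 0.0402), and Snord33 (0.49) and Snord34 (0.41) changed direction when scaled to miRNA reads. Leaving out 1 Ion Proton library left 15 to 81 called features against 295, with log2 changes of 0.40 to 0.55 for Snord32a, -0.24 to -0.11 for Snord33, -0.37 to -0.14 for Snord34 and 1.38 to 1.47 for Snord35a. The replicate block left 29 called features in both runs and 361 in the Ion Proton run, where Snord35a had an adjusted p of 0.0348 (edgeR, log2 change 0.69). The deviations of same-numbered Ion Proton libraries correlated at 0.00562 over 852 features. This cannot show whether they shared a mouse or culture, which is not given in the sources used here. The block changed no call of a member.

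For SOLiD total RNA, centring on the median feature gave log2 ratios of 0.27, -0.89, -0.97 and 2.07 for Snord32a, Snord33, Snord34 and Snord35a. Scaling to miRNA reads gave 1.69, 0.53, 0.45 and 3.49, and scaling to other snoRNA reads gave -0.0067, -1.17, -1.25 and 1.79, in the same order. For size-selected RNA these were 0.18, 0.20, 0.63 and 1.99 when centred, 2.03, 2.05, 2.48 and 3.84 with miRNA reads, and -0.45, -0.42, 0.0025 and 1.37 with other snoRNA reads. A pseudocount of 5 gave 2.55 for Snord35a in size-selected RNA. Members had 92 to 372 reads in size-selected libraries.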
